A study of Mus musculus with 6 samples.

Results

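The cytosolic heat shock chaperones described here are 10 mouse genes. They comprise the inducible Hsp70 genes Hspa1a and Hspa1b, the constitutive Hsp70 gene Hspa8, the Hsp110 family genes Hspa4 and Hsph1, the J-domain gene Dnajb1, the Hsp90 genes Hsp90aa1 and Hsp90ab1, the small heat shock protein gene Hspb1 and the transcription factor gene Hsf1. Their members are all the probe sets that the array's annotation ties to these genes by Entrez identifier. There were 13 such probe sets out of 12422, and they stood for 8 of the 10 genes: 5 for Hspa4, 2 for Hsp90aa1 and 1 for each of the others. Hsp90ab1 and Hsf1 were not analysed here. Adrenal glands of male chromogranin A (Chga) knockout mice were compared with those of male wild-type mice, all 12 weeks old, with 3 arrays per genotype. The strain labels name the knockout and the wild type by a published line without a genetic background. The series describes 3 mice per group, so each array was read as 1 animal.

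Heat shock chaperones keep cytosolic proteins folded. Hsp70 binds exposed hydrophobic stretches of a client, a J-domain protein such as Dnajb1 delivers clients and stimulates its ATPase, and an Hsp110 protein such as Hsph1 or Hspa4 acts as nucleotide exchange factor and lets the client go. Hsp90 takes over late folding steps of kinases and steroid receptors, among them the glucocorticoid receptor. When unfolded proteins accumulate, the transcription factor HSF1 is freed from chaperone binding and activates Hspa1a, Hspa1b, Dnajb1, Hsph1, Hsp90aa1 and Hspb1, whereas Hspa8 is made constitutively. In the adrenal, Hsp70 is known to be induced in cortical cells by stress through corticotropin.

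HSF1 binds repeats of inverted GAA units, the heat shock element. The 250 bases before the gene start are printed for Hspa1a and Hspa1b, which carried the largest differences, for Dnajb1, which moved with them, and for Hspb1, whose window held the most matches. Sequences and positions are from RefSeq (GRCm38.p6) and run 5′ to 3′ on the gene's strand, and capitals mark GAANNTTC or TTCNNGAA, each of which is its own reverse complement. The Hspa1a window is chr17:34972157-34972406 (minus strand), the Hspa1b window chr17:34959239-34959488 (minus strand), the Dnajb1 window chr8:83607925-83608174 (plus strand) and the Hspb1 window chr5:135887669-135887918 (plus strand).
Hspa1a: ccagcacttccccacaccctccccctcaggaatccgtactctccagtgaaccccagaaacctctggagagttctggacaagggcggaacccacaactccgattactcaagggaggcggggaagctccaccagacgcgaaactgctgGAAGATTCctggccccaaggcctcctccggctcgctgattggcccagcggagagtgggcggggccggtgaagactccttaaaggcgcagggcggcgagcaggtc
Hspa1b: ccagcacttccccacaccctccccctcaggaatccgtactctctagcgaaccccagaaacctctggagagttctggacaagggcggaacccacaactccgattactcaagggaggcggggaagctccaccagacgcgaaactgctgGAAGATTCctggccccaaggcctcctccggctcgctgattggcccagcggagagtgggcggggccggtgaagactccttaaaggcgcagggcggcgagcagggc
Dnajb1: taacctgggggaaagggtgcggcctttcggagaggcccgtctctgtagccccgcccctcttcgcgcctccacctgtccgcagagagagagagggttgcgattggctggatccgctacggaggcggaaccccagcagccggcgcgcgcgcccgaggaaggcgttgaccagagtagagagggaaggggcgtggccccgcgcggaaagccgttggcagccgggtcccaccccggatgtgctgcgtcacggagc
Hspb1: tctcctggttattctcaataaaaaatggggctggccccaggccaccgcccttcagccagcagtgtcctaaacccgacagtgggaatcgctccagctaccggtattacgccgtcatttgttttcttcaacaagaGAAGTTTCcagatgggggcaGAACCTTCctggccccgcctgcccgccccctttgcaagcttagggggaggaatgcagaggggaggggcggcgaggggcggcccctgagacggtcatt

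Hspa1a and Hspa1b are next to each other on chromosome 17 in the RefSeq table, and their windows were identical at 247 of 250 bases. Each held a single GAANNTTC match, whose first base lay 104 bases before the start, and a CCAAT box on either strand beginning 67 bases before it. Hspb1 held 2 GAANNTTC matches, beginning 117 and 97 bases before its start. Hsph1, on chromosome 5, held 1 TTCNNGAA match, beginning 33 bases before its start and not printed here. The windows of Dnajb1 and Hspa4 held neither form. Thus 4 of the 6 member genes with a window in the table held a match, against 12.9% of 27025 promoters of the same length. The forms GAANNTTC and TTCNNGAA were held by 6.78% and 7.1% of those promoters. A longer form, in which either match is followed after 2 bases by another GAA or TTC unit, was in 0 of the 6 windows and in 0.4% of all promoters. These are matches of letters and were not tested as sites.

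Signals are MAS5 values, a linear brightness per probe set that the authors had scaled between arrays. The median signal was 954 to 1093 over the 6 arrays. Chga, which checks the labels, read 1188, 858 and 951 in the 3 knockout glands and 46719, 30213 and 35306 in the wild-type glands for its brighter probe set. Whether that probe set lies in the deleted part is not given in the sources used here. Defining genes of the adrenal were bright on every array, with signals of 67033 to 97225 for the cholesterol transporter gene Star and 18716 to 26543 for the catecholamine enzyme gene Th. Knockout arrays 2 and 3 stood apart. Their Gapdh 3′ to 5′ signal ratios, a sign of RNA or cRNA integrity, were 1.30 and 1.29, against 0.831 on knockout array 1 and 0.762 to 0.806 on the wild-type arrays. They also carried skeletal muscle transcripts: the summed signal of 12 muscle markers, none of them at 0, was 82612 and 41425 on these arrays, 10114 on knockout array 1 and 10191 to 10702 on the wild-type arrays. Not all markers were raised on both arrays. Muscle actin Acta1 read 32131 and 13869 there. Muscle creatine kinase, Ckm, read 553 and 651 (636 to 818 in wild type), and Myh4 read 807 and 1313 (993 to 1068 in wild type). Summed signals of other marker lists, none with a gene at 0, were 12938 to 23624 in knockout and 10293 to 13567 in wild-type arrays for 6 macrophage genes, 22392 to 26548 and 16831 to 20440 for 5 endothelial genes, and 166345 to 180412 and 138634 to 152162 for 4 of 5 chromaffin genes. Among these 4 chromaffin genes only Chgb was higher on every knockout than on every wild-type array (103998 against 74187 on average). Th, Ddc and Pnmt overlapped between the genotypes, and Pnmt was lower on average (36439 against 42136). The summed signals for 3 of 5 adipocyte genes were 27103 to 42532 in knockout and 19380 to 33539 in wild-type arrays. For 5 of 6 cortical genes the sums were 367906 to 430755 and 346728 to 428781. The part of these cell types in the chaperone signals was not tested, and in a whole gland more cells of a type and more RNA per cell cannot be told apart.

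The stress-inducible Hsp70 genes had the largest differences among the members. Both were higher on every knockout than on every wild-type array, by about 3.4-fold and 3.2-fold, but neither passed the test over all probe sets. Hspa1a had signals of 22689, 27856 and 30570 in knockout glands 1 to 3, and of 14387, 3772 and 8932 in wild-type glands 1 to 3, or 27039 ± 4004 against 9030 ± 5308 (SD, n = 3 each). The knockout arrays were close to each other, with a highest over lowest ratio of 1.35, and the wild-type arrays were spread by 3.81-fold. The log2 change, on the scale of log2(signal + 16), was 1.77 ± 0.40 (SE), with a 95% interval of 0.87 to 2.67, a 3.41-fold difference (limma adjusted p = 0.155).

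Hspa1b read 23322, 34654 and 30188 in knockout and 14402, 5647 and 8966 in wild-type glands, or 29388 ± 5708 against 9672 ± 4420 (SD, n = 3 each). Wild-type array 1 was again the highest and wild-type array 2 the lowest of its group, and knockout array 1 the lowest of the knockout group. The log2 change was 1.69 ± 0.30 (SE), with an interval of 1.002 to 2.37, a 3.22-fold difference (limma adjusted p = 0.0602). By unadjusted p the Hspa1b and Hspa1a probe sets ranked 42 and 79 of 7453 tested. The transcripts are near-identical copies and the probe sets may not tell them apart, so they are not separate evidence.

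**Figure D1:**
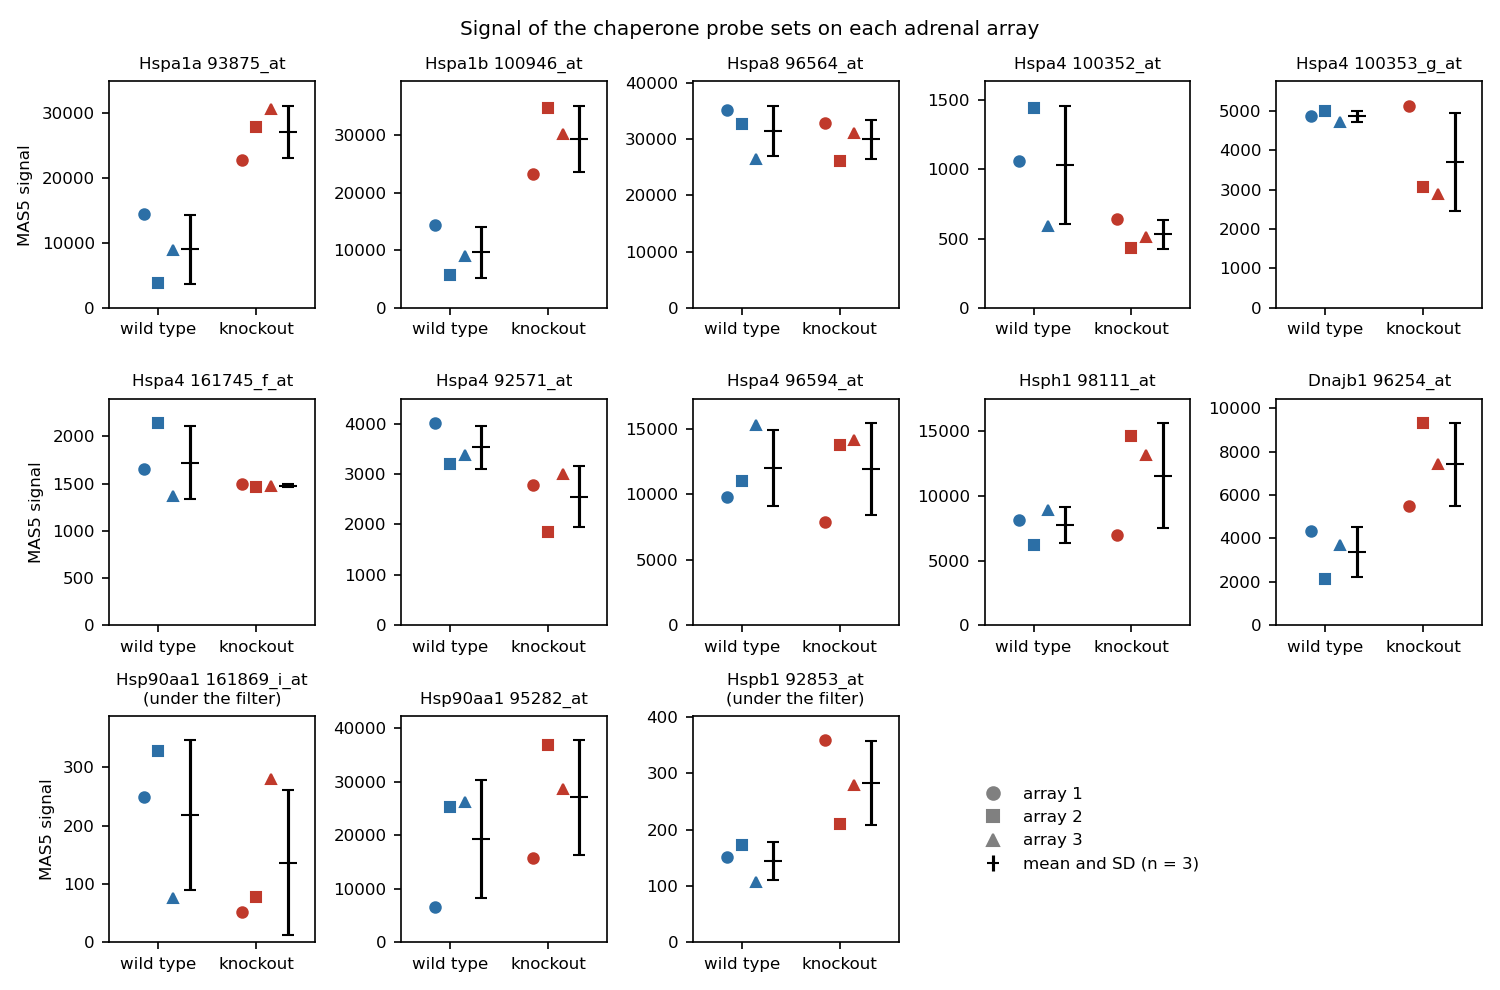
MAS5 signal (vertical axis, linear from 0, a scale of its own in each panel) of the 13 chaperone probe sets on wild-type (blue) and knockout (red) arrays 1 to 3, with the mean and SD (n = 3) in black. The knockout points lie above all wild-type points for Hspa1a, Hspa1b, Dnajb1 and the dim Hspb1, and below them for 1 of the 5 Hspa4 probe sets.

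The call on the Hsp70 genes depended on single arrays. Without wild-type array 1, the wild-type array with the most Hsp70 signal, both passed, with log2 changes of 2.21 (limma adjusted p = 0.0278) for Hspa1a and 2.02 (adjusted p = 0.00883) for Hspa1b. Hspa1b also passed without knockout array 1 (1.84, adjusted p = 0.034), and neither passed in the other 4 fits that left out an array. Of all tested probe sets 39 passed without wild-type array 1 and 141 without knockout array 1, beside 33 in the main fit. With knockout array 1 as the only knockout, the differences were 1.53 for Hspa1a and 1.37 for Hspa1b; that arm has a single array, so the values are given without a test. On that array the muscle marker sum and the actin 3′ to 5′ ratio were 10114 and 1.32, beside 10191 to 10702 and 1.14 to 1.22 in wild type. With the Gapdh 3′ to 5′ ratio as a covariate the changes were 1.41 and 1.27 (limma adjusted p = 0.973 and 0.76). That ratio was high only on knockout arrays 2 and 3, so wherever this covariate is used the estimate rests mostly on knockout array 1. Such a fit is less precise, and it is not a check separate from the fit with knockout array 1 alone. Over the 19 alternatives with more than 1 knockout array the adjusted p ran from 0.0278 to 0.973 for Hspa1a and from 0.00883 to 0.76 for Hspa1b, and both changes stayed positive in these and with knockout array 1 alone.

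The J-domain cochaperone gene Dnajb1, which encodes Hsp40, followed the same order over the arrays. It read 5479, 9295 and 7446 in knockout and 4323, 2119 and 3690 in wild-type glands, or 7407 ± 1909 against 3377 ± 1135 (SD, n = 3 each). The genotypes did not overlap, and the 6 arrays ranked as they did for Hspa1b, from wild-type array 2 at the bottom to knockout array 2 at the top. The log2 change was 1.16 ± 0.28 (SE), with an interval of 0.52 to 1.80, a 2.23-fold difference that did not pass (limma adjusted p = 0.192). It was 0.76 with knockout array 1 alone and 0.65 with the Gapdh ratio as a covariate. Its adjusted p was between 0.0608 and 0.999 over the same 19 alternatives, so that Dnajb1 was called in 0 of them.

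Across the 6 arrays, the genes most like the Hsp70 pair were ranked by Pearson correlation of log2 signal with the mean of Hspa1a and Hspa1b, over 5656 named genes outside the members. These r values are a description over 6 arrays of 2 genotypes, with no test. The top 5 were Cuedc1 (r = 0.996), 5031439G07Rik (0.993), Ganab (0.989), Flot1 (0.988) and Rcan3 (0.984). All 5 had higher signals on every knockout than on every wild-type array, beside 7.55% of all tested probe sets, and none passed. They were picked by likeness to a pair that itself separates the genotypes, so this separation largely follows from the choice. Rcan3, which encodes a regulator of calcineurin, had the widest range of these, with 1383, 1711 and 1624 in knockout and 902, 191 and 600 in wild-type glands (log2 change 1.69, limma adjusted p = 0.27). Its wild-type mean of 564 lay under the limit of about 582 for testing. Rcan3 was thus ranked and tested only through its knockout signals, and the filter itself favoured a higher knockout value. Ganab encodes the catalytic subunit of endoplasmic reticulum glucosidase II and had a log2 change of 0.45, and the membrane microdomain gene Flot1 had one of 0.29. Among the members, r with the pair was 0.975 for Dnajb1, 0.731 for Hsph1, 0.0978 for the bright Hsp90aa1 probe set and -0.19 for Hspa8.

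Hspa8, the constitutive Hsp70 of the cytosol, had nearly equal values in both genotypes. Its signals were 32822, 26094 and 31073 in knockout and 35174, 32798 and 26537 in wild-type glands, so that the groups overlapped throughout. The log2 change was -0.07 ± 0.15 (SE, limma adjusted p = 0.897), and its 95% interval of -0.40 to 0.27 does not reach the differences estimated for Hspa1a, Hspa1b or Dnajb1. Differences between these genes were not tested.

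The Hsp110 genes did not follow each other. Hsph1, itself inducible by heat, read 6954, 14624 and 13159 in knockout and 8143, 6245 and 8911 in wild-type glands. Knockout arrays 2 and 3 lay above all wild-type arrays, while knockout array 1 lay among them. The log2 change was 0.52 ± 0.27 (SE), with an interval of -0.09 to 1.13 (limma adjusted p = 0.505). Knockout arrays 2 and 3 are those with muscle transcripts and high 3′ to 5′ ratios, and with knockout array 1 alone the change was -0.14. Without knockout array 1 it was 0.85 (adjusted p = 0.0575).

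Hspa4, the constitutive Hsp110 relative also called Apg-2, had 5 probe sets, all tested and none past the threshold, and all 5 log2 changes were below 0. Probe set 92571_at read 2792, 1858 and 2992 in knockout and 4014, 3209 and 3375 in wild-type glands, the single member whose knockout arrays all lay below the wild-type arrays (log2 change -0.49 ± 0.21 SE, limma adjusted p = 0.427). Probe set 100352_at, close to the limit for dim signals, read 643, 432 and 514 against 1059, 1442 and 590, with an overlap at the edge (-0.87 ± 0.37, adjusted p = 0.427). Its knockout mean of 530 lay under that limit of about 582 and its wild-type mean of 1030 above it. It was thus tested only through its wild-type signals. Probe set 100353_g_at read 5122, 3069 and 2875 against 4866, 4994 and 4700. Its wild-type arrays were tight and knockout array 1 was the highest of all 6, while knockout arrays 2 and 3 were the lowest (-0.44 ± 0.22, adjusted p = 0.485).

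The other Hspa4 probe sets showed smaller differences. Probe set 161745_f_at had 1495, 1466 and 1470 in knockout and 1651, 2141 and 1373 in wild-type glands (-0.20 ± 0.21, limma adjusted p = 0.767). Probe set 96594_at had 7838, 13749 and 14122 against 9754, 10994 and 15279 (-0.04 ± 0.25, adjusted p = 0.973), and here knockout array 1 was the lowest of the 6. Thus 100353_g_at and 96594_at ordered the knockout arrays in opposite ways, although the annotation gives both to the same gene. With knockout array 1 alone, the log2 changes of the 5 probe sets were -0.58 for 100352_at, 0.078 for 100353_g_at, -0.18 for 161745_f_at, -0.33 for 92571_at and -0.59 for 96594_at.

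**Figure D2:**
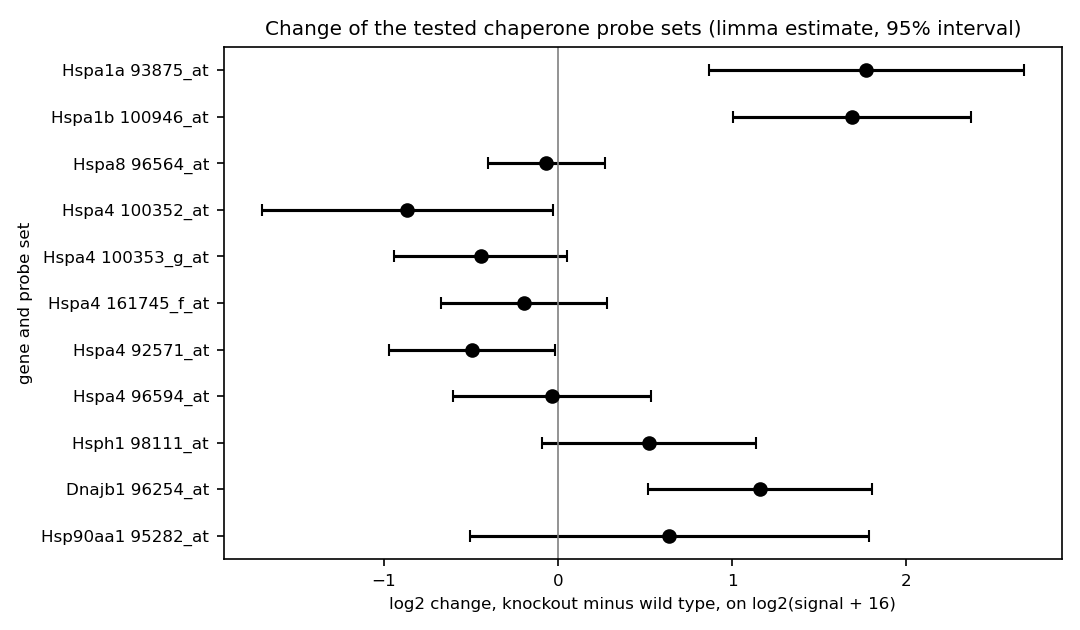
Estimated log2 change, knockout minus wild type (horizontal axis), with its 95% interval from limma, for the 11 tested chaperone probe sets (vertical axis). The intervals of Hspa1a, Hspa1b and Dnajb1 lie above 0 and those of Hspa4 100352_at and 92571_at just below it; none of the 11 passed after adjustment over 7453 probe sets.

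Hsp90aa1, the stress-inducible cytosolic Hsp90, varied more within genotypes than between them. Its bright probe set read 15712, 36905 and 28653 in knockout and 6666, 25222 and 26152 in wild-type glands. Wild-type array 1 was low by 3.92-fold against the highest of its group, and knockout array 1 was the lowest of its own. On the same wild-type array Hspa1a and Hspa1b were the highest of the wild-type group. The log2 change was 0.64 ± 0.51 (SE), with an interval of -0.51 to 1.78 (limma adjusted p = 0.674). It was -0.0093 without wild-type array 1, -0.061 with knockout array 1 alone and 0.99 without knockout array 1. The other Hsp90aa1 probe set was dim, with 52.7, 78.1 and 280.0 on the knockout and 250.1, 327 and 76.1 on the wild-type arrays. It was left out of the test.

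Hspb1, which encodes the small heat shock protein Hsp25, was also dim and left out of the test. Its signals were 359, 210 and 280 in knockout and 152, 173 and 107 in wild-type glands, or 283 ± 75 against 144 ± 34 (SD, n = 3 each). The groups did not overlap, but all 6 values lay under the limit of about 582 for testing. In the fit with no filter on low signal its log2 change was 0.89 ± 0.43 (SE, limma adjusted p = 0.606).

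**Figure D3:**
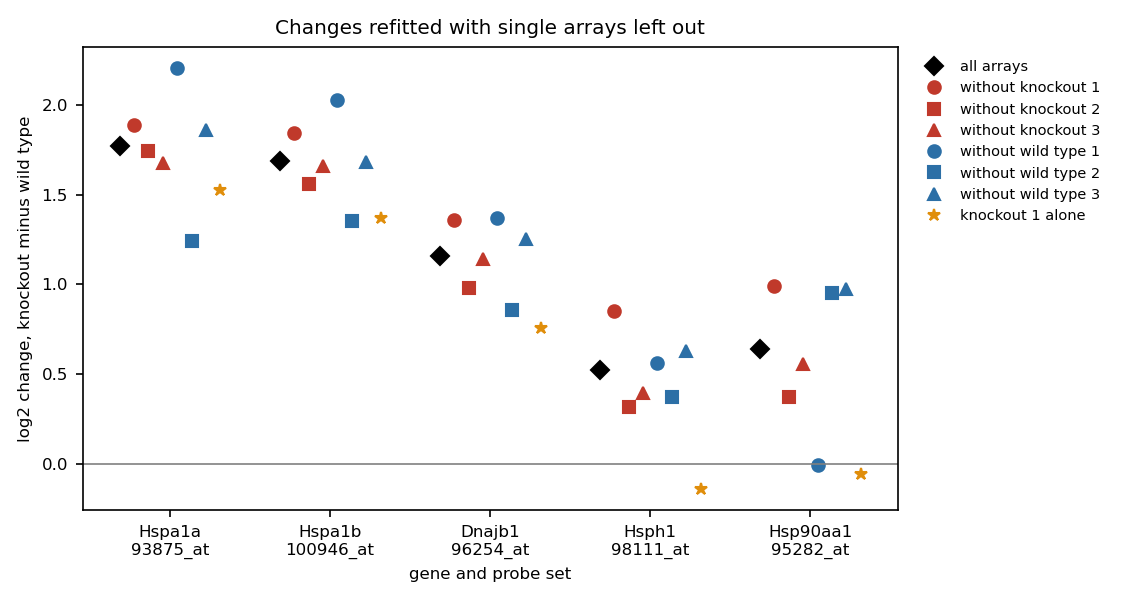
Log2 change, knockout minus wild type (vertical axis), of 5 chaperone probe sets (horizontal axis) with all arrays (black), without each knockout (red) or wild-type array (blue), and with knockout array 1 alone (star). Hspa1a, Hspa1b and Dnajb1 stay above 0 in every fit shown. With knockout array 1 alone Hsph1 falls to -0.14 and Hsp90aa1 to -0.061, and without wild-type array 1 Hsp90aa1 is at -0.0093.

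In all, 11 of the 13 member probe sets passed the filter on dim signals, and 0 of the 11 passed the threshold in limma, where 0.443% of all 7453 tested probe sets did. At an unadjusted p under 0.05, 3 of 11 (27.3%) were higher and 2 (18.2%) lower, beside 5.06% and 6.25% of all tested. Without overlap between the groups, 3 of 11 (27.3%) were higher and 1 (9.09%) lower, beside 7.55% and 8.83% of all tested. The higher ones are Hspa1a, Hspa1b and Dnajb1, of which the first are near-identical, and both probe sets that were lower by unadjusted p belong to Hspa4, whose other 3 did not reach it. Of the 2 lower ones, 100352_at passed the filter only through its wild-type signals, so the filter itself favoured a lower knockout value there. The median log2 change was -0.04 over the 11 and -0.0083 over all tested probe sets, since 5 of the 11 probe sets belonged to Hspa4.

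Other chaperone and stress genes gave 0 calls in limma among 60 genes tested, with 1 probe set per gene, and 11 had an unadjusted p under 0.05, where 11.3% of all tested probe sets did. The subunits of TRiC, the ring chaperonin that folds actin and tubulin, had lower values throughout: all 8 had log2 changes below 0 (median -0.38, from -0.73 to -0.08), and 5 of 8 had every knockout array below every wild-type array, beside 8.83% of all tested probe sets. At an unadjusted p under 0.05, 4 of 8 were lower, beside 6.25% of all tested. Cct8 read 2872, 3023 and 3004 in knockout and 5354, 4359 and 3987 in wild-type glands (-0.61 ± 0.16 SE, limma adjusted p = 0.225), so that the knockout arrays were level with each other. Cct3 read 7734, 3709 and 4891 against 9627, 8236 and 8160 (-0.73, adjusted p = 0.352), with knockout array 1 nearest to the wild type, and Cct7 and Cct5 had changes of -0.41 and -0.39. With knockout array 1 alone the TRiC median was -0.16, with 7 of 8 below 0, and Cct8 kept a change of -0.66 while that of Cct3 was -0.16. Cct3 passed without knockout array 1 (-1.02, adjusted p = 0.0293).

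Cochaperones of Hsp70 and Hsp90 had a median log2 change of -0.03 over 24 genes, 11 with higher and 13 with lower values, and 2 lower ones had an unadjusted p under 0.05, a share near the 6.25% of all tested. These were Stip1, the adaptor that links Hsp70 to Hsp90, with 4885, 3670 and 3531 in knockout and 5069, 5720 and 5587 in wild-type glands (-0.45, limma adjusted p = 0.39), and St13, the Hsp70-interacting protein gene (-0.41, adjusted p = 0.43). These 2 of 24 were lower on every knockout than on every wild-type array and 1, the myosin chaperone gene Unc45a (0.34), was higher, beside 8.83% and 7.55% of all tested. With knockout array 1 alone the changes of Stip1 and St13 were -0.16 and -0.15. Among 4 other small heat shock protein genes, 3 had higher and 1 lower values (median 0.15). Hspb2 had a change of 0.69 with overlapping groups (limma adjusted p = 0.402). Cryaa (-0.48) was lower on every knockout than on every wild-type array, 1 of 4 beside 8.83% of all tested. With knockout array 1 alone the list median and the change of Hspb2 were 0.070 and 0.25, and with the Gapdh ratio as a covariate 0.012 and 0.15.

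Chaperones of other compartments had medians near 0. Of 10 endoplasmic reticulum genes 5 had higher and 5 lower values (median -0.00037), and the disulfide isomerase gene Pdia6 had the largest difference, with 4672, 2057 and 1674 in knockout and 5039, 4242 and 4205 in wild-type glands (-0.82, limma adjusted p = 0.408). Knockout array 1 lay among the wild-type arrays there, and without it Pdia6 passed (-1.26, adjusted p = 0.0143). That fit rests on knockout arrays 2 and 3, those with muscle transcripts, and 141 of all tested probe sets passed in it. Of 7 mitochondrial genes 4 had higher and 3 lower values (median 0.07), with Grpel1, the exchange factor of mitochondrial Hsp70, at -0.45 (adjusted p = 0.431), or -0.11 with knockout array 1 alone and -0.07 with the Gapdh covariate. Of 7 other stress genes, 6 had higher values (median 0.20), and Serpinh1 had a lower one (-0.41). With knockout array 1 alone 4 of the 7 had higher values (median 0.061), and 4 had them with the Gapdh covariate (median 0.012). A link of these genes to HSF1 was not tested. Among them the autophagy receptor gene Sqstm1 read 22773, 26301 and 24273 in knockout and 20359, 19115 and 19421 in wild-type glands (0.31, adjusted p = 0.39). The heme oxygenase gene Hmox1 read 4787, 12190 and 13669 against 4856, 5134 and 4808 (0.91, adjusted p = 0.397). Its high values were those of knockout arrays 2 and 3, as for Hsph1, and it passed in the same fit without knockout array 1 (1.39, adjusted p = 0.00307).

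**Figure D4:**
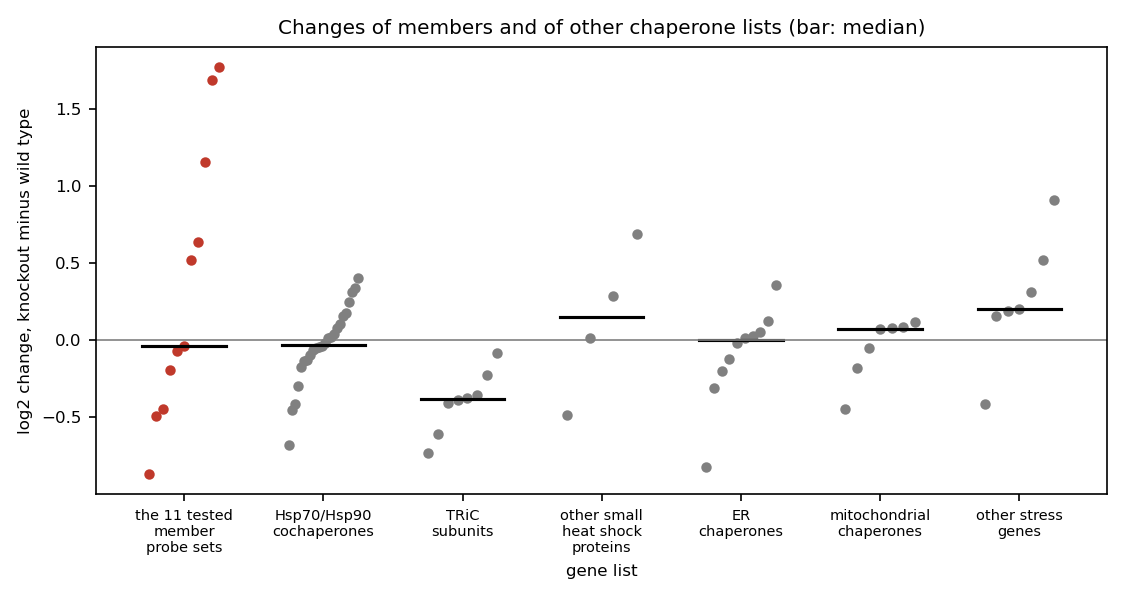
Log2 change, knockout minus wild type (vertical axis), of the 11 tested member probe sets (red) and of the genes of 6 other chaperone and stress lists (grey, 1 probe set per gene), with the median of each as a bar. The 3 highest points are Hspa1a, Hspa1b and Dnajb1, and all 8 TRiC subunits lie below 0.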

How the data were processed

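The authors deposited linear array intensities, 1 MAS5 signal per probe set and array, from biotin-labelled cRNA on Affymetrix arrays; MAS5 is named in the submitters' processing notes, without version or scaling target. The 2% trimmed mean was 2501 on all 6 arrays, so no further scaling was done. Control probe sets (66 of 12488) were left out. Symbols came from the platform annotation, updated through Entrez identifiers with RefSeq (GRCm38.p6).

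Values were taken as log2(signal + 16), which understates changes of dim genes. Probe sets under the 40th percentile of mean log2 signal (about 582) were not tested, leaving 7453. The test was limma (version 3.58.1, R 4.3.3; lmFit and eBayes with an intensity trend). Its p-values were adjusted by Benjamini-Hochberg across all of these, and 0.05 was the threshold. The script was tested on simulated data. The number of arrays, 3 per group, limits precision; nothing but the series' animal count says that they are separate animals, and otherwise p-values measure technical spread. Members, lists and alternatives were chosen with earlier results of these data known. Named were all members, up to 4 genes per list with the smallest unadjusted p (those under 0.05), the 5 genes most like the Hsp70 pair, and Chga. The genes Star and Th were also given as tissue markers.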

Additional observations from a re-analysis of the deposited data

How the results depend on the processing

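Over all tested probe sets 33 passed; 17 passed without the intensity trend, 57 with the replicate number as a block, 15 with the Gapdh 3′ to 5′ ratio as covariate, 13 with knockout array 1 alone (its spread taken from the wild-type arrays) and 0 (676 at an unadjusted p under 0.05) in the unmoderated test. Leaving out an array gave 15 (without knockout array 3) to 141 (without knockout array 1), with 17 and 19 without wild-type arrays 2 and 3. Of the members, 0 passed, 1 (Hspa1b) passed with a filter at the 60th percentile and with array weights, and 0 to 2 passed with an array left out. Deviations of same-numbered arrays correlated with r of 0.255, -0.035 and -0.039, and those of differently numbered arrays with r of -0.181 to 0.250. With 3 arrays per group these values cannot decide whether the numbers pair the samples, and the main fit used no pairing. The block called 0 members. Of 219 refits of member changes, 201 kept direction and call, 5 gained a call and 13 changed sign. With the Gapdh ratio the values were 0.10 for Hspa8, 0.15 for Hspa4 100353_g_at, -0.26 for Hsph1, -0.13 for Hsp90aa1, 0.17 for Pdia6, -0.16 for Hmox1, -0.13 for Atp2a1 and -0.14 for Mylpf (muscle genes); with knockout array 1 alone they were 0.069, 0.078, -0.14, -0.061, 0.060, -0.043 and, for Mylpf, -0.037. With an array left out, Hspa4 96594_at ran from -0.18 to 0.24, Hspa8 from -0.19 to 0.030 (0.017 without wild-type array 1) and Hsp90aa1 from -0.0093 to 0.99. The cause was not tested. Scaling moved the median of all probe sets by under 0.1.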
